A study of Mus musculus with 18 samples.

Results

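Gene expression in forepaws of Sema3b-/- mice with arthritis was compared with that in forepaws of wild-type (WT) control mice. The 9 libraries of this comparison were taken by their labelled genotype and treatment from 18 in the series: 5 are Sema3b-/- arthritis and 4 are WT control. The other 9, from 4 Sema3b-/- control and 5 WT arthritis forepaws, entered the same fit and served to ask which genes separate by genotype alone. All mice were of the C57BL/6 strain, every library was made from forepaw RNA by CEL-seq, which reads each RNA from a tag near its 3' end, and the sources used here name neither the arthritis model, the age of the mice nor the part of Sema3b that the knockout removed. Genotype and treatment change together between the groups, so the combined difference belongs to both at once.

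Sema3b encodes a secreted class 3 semaphorin, a protein that binds neuropilins and plexins on the cell surface and is known for guiding axons and restraining cell migration. In inflamed joints, synovial fibroblasts and myeloid cells secrete chemokines and cytokines that draw neutrophils and monocytes from the blood, while proteases degrade cartilage and bone turnover is disturbed. A forepaw holds skin, muscle, tendon, fat, nerve, bone with its marrow and joints together, and a change in the RNA of the whole paw can come from a change in any of them.

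Values are normalized counts, the authors' read counts divided by a size factor for each library, given in the order of replicates 1 to 5 of Sema3b-/- arthritis or 1 to 4 of WT control. Log2 fold changes are on the log2(value + 1) scale, which understates the change of low genes, and each is followed by its standard error from the fit. A gene is said to have risen or fallen where limma, a linear model fitted to all genes at once, gave a Benjamini-Hochberg adjusted p under 0.05 over the 13809 genes tested. Since the tissue was measured in bulk, fewer cells of a type and less RNA per cell cannot be told apart. The labels do not state that each library came from a separate animal, so p-values reflect only how much these libraries vary, which may be technical.

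Depth in the 9 libraries ran from 5468160 to 10083213 total reads, against 1732783 to 19464888 in all 18. For replicate 5 of Sema3b-/- arthritis the name of its data column carries the suffix Ct, against a title and a treatment label that both say arthritis. Its Saa3 value lay within the range of the other 4 arthritis libraries and its Mmp3 value above it, and counts without it are given beside the main ones. It was also the only male of the 5 by its Xist and Y-linked RNA, while all 4 WT control libraries were female. Replicates 1 and 2 of Sema3b-/- arthritis have titles worded differently from those of replicates 3 to 5, and all control titles begin with letters that no arthritis title has, so the wording of titles and arthritis cannot be told apart. Markers of forepaw tissue were present in each of the 9 libraries, with skeletal muscle genes at 0.263% to 2.99% of normalized counts, epidermis genes at 0.0643% to 1.99% and cartilage genes at 0.0485% to 0.238%. Sema3b-/- arthritis replicate 2 held the least muscle and skin RNA of the 9 libraries. Among the libraries used for the genotype, WT arthritis replicate 2 had inflammatory genes near the level of controls, with Saa3 at 12.6 and Il1b at 45.8, and WT arthritis replicate 1 had Saa3 at 447 against 1650 to 3990 in replicates 3 to 5.

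The targeted gene followed the genotype labels in every library. Sema3b (chr9:107597674-107609229 on mm10, minus strand, protein coding) was at 49.7, 44.2, 67.5 and 62.2 in WT control and at 0, 0.948, 2.01, 3.49 and 0 in Sema3b-/- arthritis, from 45 to 73 and from 0 to 4 reads. The groups did not overlap, and the log2 fold change was -4.87 (SE 0.57) at a limma adjusted p of 0.000242. In Sema3b-/- arthritis replicates 1 and 5 a count of 0 allows up to 3.89 and 2.08 normalized counts, the worth of 3 reads.

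In the combined comparison 1491 of the 13809 genes passed, 10.8% of those tested, 887 (6.42%) higher and 604 (4.37%) lower in Sema3b-/- arthritis. The counts given below for gene lists are to be read beside these shares. The 5 and 4 libraries did not overlap for 2817 genes (20.4%), 1368 of them among the 1491. Of the calls, 692 had an absolute log2 fold change of at least 1, and 103 were at 2 or more and 81 at -2 or less. The median log2 fold change of all genes tested was -0.04. The count was 1013 without Sema3b-/- arthritis replicate 5, 834 without replicate 2, and 915, 892, 786 and 766 without WT control replicates 1, 2, 3 and 4. Against the same WT control libraries it was 435 with Sema3b-/- arthritis replicates 3 to 5 alone and 674 with replicates 1 and 2 alone, and 1366 passed with female libraries alone. Of the 1491 genes, 600 passed whichever of the 18 libraries was left out. With scaling to total reads in place of the deposited size factors 1008 genes passed and the split turned to 398 higher and 610 lower.

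The genes of the largest rises that are named here encode mostly secreted inflammatory proteins. Saa3 (chr7:46711998-46715700), a serum amyloid A protein made locally in inflamed tissue, was at 2570, 3700, 1620, 784 and 2860 in Sema3b-/- arthritis and at 6.63, 28, 33.8 and 14.5 in WT control. All 5 values lay above all 4, and the log2 fold change was 6.77 (SE 1.27, limma adjusted p = 0.00524). Cxcl5 (chr5:90759360-90761624), a chemokine that attracts neutrophils through the receptor Cxcr2, was at 593, 1270, 654, 392 and 1010 against 14.4, 2.71, 20.6 and 14.5 (log2 fold change 5.94, SE 1.06). Cxcl2 (chr5:90903871-90905938), another ligand of the same receptor, was at 232, 136, 134, 184 and 176 against 0, 1.8, 8.44 and 0.853 (log2 fold change 6.00, SE 1.28). For both chemokines the lowest arthritis library stood far above the highest control.

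**Figure D1:**
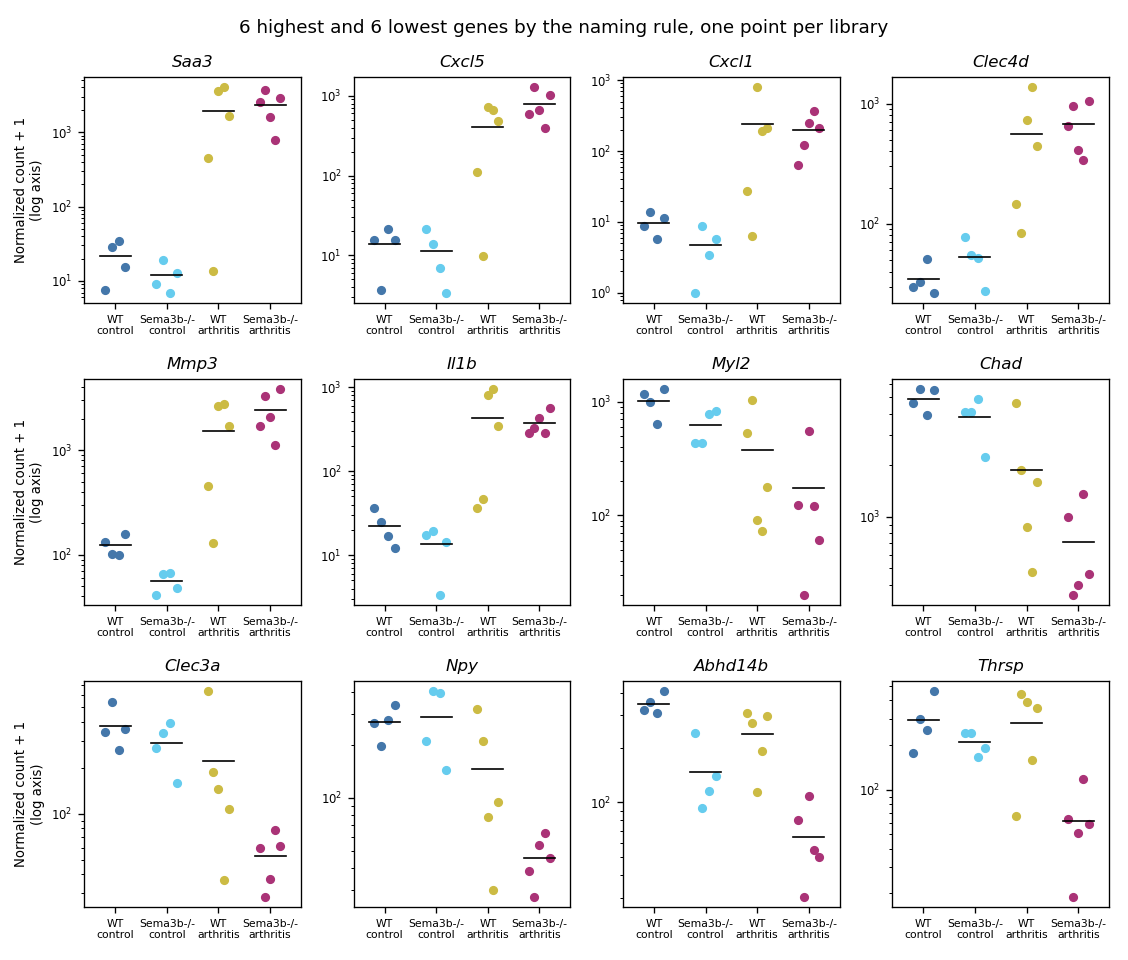
Normalized count plus 1 on a log axis for the 6 highest and 6 lowest genes by log2 fold change in the combined comparison, among those called, without overlap and at or above the median level of 106 normalized counts, in all 4 groups; each point is 1 library and each line the group mean. Saa3 ran from 784 to 3700 in Sema3b-/- arthritis and from 6.63 to 33.8 in WT control, and Chad from 349 to 1360 and from 3930 to 5560.

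The windows before the start sites of the 3 named genes with the highest log2 fold changes that have a RefSeq promoter entry are shown because these genes rose together. They are Saa3 (GRCm38.p6, chr7:46715677-46715926, minus strand), Cxcl2 (chr5:90903649-90903898, plus strand) and Trem1 (chr17:48232489-48232738, plus strand), which encodes a receptor that amplifies inflammatory signals in neutrophils and monocytes. Each line gives the 250 bases before the RefSeq start, 5' to 3', on the strand of the gene. Capitals mark matches on either strand to any of 3 motifs: GGG and TTCC with any 3 bases between them, a form of the NF-kB site, TTGCNNAA, the core of the C/EBP site, and TATAAA.
Saa3: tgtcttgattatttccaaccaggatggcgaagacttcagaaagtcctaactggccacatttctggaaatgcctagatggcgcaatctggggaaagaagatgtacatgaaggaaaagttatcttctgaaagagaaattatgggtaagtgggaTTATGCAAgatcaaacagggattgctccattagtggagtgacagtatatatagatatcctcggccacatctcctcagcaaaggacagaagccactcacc
Cxcl2: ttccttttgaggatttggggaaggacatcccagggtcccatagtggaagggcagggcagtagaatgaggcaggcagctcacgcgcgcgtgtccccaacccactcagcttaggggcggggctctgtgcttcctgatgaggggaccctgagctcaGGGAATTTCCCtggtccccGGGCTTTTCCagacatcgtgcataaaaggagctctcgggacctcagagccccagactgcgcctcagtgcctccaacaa
Trem1: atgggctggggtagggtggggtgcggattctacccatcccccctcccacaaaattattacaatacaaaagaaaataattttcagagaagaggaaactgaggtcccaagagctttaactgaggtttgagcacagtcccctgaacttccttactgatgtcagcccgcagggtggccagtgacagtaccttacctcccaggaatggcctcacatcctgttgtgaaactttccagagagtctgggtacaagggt
The Cxcl2 window held 3 matches to the NF-kB form, given here in the letters of the gene strand. Of these, 2 overlap 97 to 87 bases before the start, GGGAATTTCC on the gene strand and GGAATTTCCC, which matches on the opposite strand. The third is GGGCTTTTCC at 78 to 69 bases. The Saa3 window held 1 match to the C/EBP core on the opposite strand, 99 to 92 bases before the start. On the gene strand it is printed as TTATGCAA. The Trem1 window held none of the 3 motifs. Of 32851 promoter windows of the same length, 4.65% hold the NF-kB form, 9.56% the C/EBP core and 12.4% TATAAA. These are matches of letters only.

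Most chemokines rose. Of 5 neutrophil-attracting chemokines 4 rose, with a list median of 4.20; Cxcl1 was at 63.5, 119, 245, 364 and 209 against 7.74, 12.6, 4.69 and 10.2 (log2 fold change 4.20, SE 1.08), a call that ended without WT control replicate 1, 3 or 4 (limma adjusted p = 0.0541, 0.0682 and 0.0534). Ppbp, a platelet chemokine, was the member that did not pass, at -0.17. Of 17 other chemokines 10 rose, with a median of 2.27. Those that attract monocytes were high in all 5 arthritis libraries. Ccl8 was at 2910, 3370, 2120, 3130 and 4850 against 158, 241, 195 and 172 (log2 fold change 4.05, SE 0.63). Ccl7 (3.81, SE 0.76), Ccl2 (3.62, SE 0.67), Ccl9 (2.32, SE 0.29) and Ccl6 (2.27, SE 0.36), all CC chemokines, rose likewise. Ccl9 had the smallest error of these, at 2750, 2980, 1620, 3390 and 2360 against 409, 559, 475 and 610.

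Among cytokines 4 of 12 rose, with a median of 1.14. Il1b, interleukin-1 beta, was at 285, 325, 423, 281 and 556 against 35.4, 23.5, 15.9 and 11.1 (log2 fold change 4.13, SE 0.88), with no overlap. Il1rn, the natural antagonist of the interleukin-1 receptor, rose with it (1.38, SE 0.32), as did Osm, oncostatin M, a cytokine of the interleukin-6 family (3.16, SE 0.70). Il6 was listed at 0 in all 4 WT control libraries and ran from 7.58 to 29.6 in Sema3b-/- arthritis, at least 23.5-fold higher against a floor of 3 reads over the WT control group; it is named here for its place in the list after its values were seen. Tnf, at a log2 fold change of 1.43, did not pass.

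Receptors and the feedback genes of these signals shifted less. Of 13 cytokine receptors 6 rose, with a median of 0.78, and 3 without Sema3b-/- arthritis replicate 2, among them Il4ra, the receptor chain for interleukins 4 and 13 (1.98, SE 0.35), Tnfrsf1b, a receptor of TNF (1.35, SE 0.29), and Csf2rb, the shared chain of the interleukin-3, interleukin-5 and GM-CSF receptors (1.10, SE 0.24). Of 16 NF-kB and STAT3 targets and feedback genes 4 rose, with a median of 0.63, against 2 without Sema3b-/- arthritis replicate 2 and 1 with scaling to total reads. Socs3, which shuts off STAT3 signalling, was at 316, 285, 300, 321 and 358 against 88.4, 93.8, 93.8 and 80.1 (log2 fold change 1.81, SE 0.38), with no overlap. Nfkbia, the inhibitor that NF-kB itself induces, rose by less (0.60, SE 0.15), a call that ended with scaling to total reads. Nfkb2 rose by 0.78 (SE 0.20), a call that ended without WT control replicate 1 or 3 or Sema3b-/- arthritis replicate 2 (limma adjusted p = 0.0532, 0.0747 and 0.0578).

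Acute phase genes and interferon-stimulated genes also leaned upward. Of 11 acute phase genes 6 rose and 1 fell, with a median of 1.75. Ptx3, a pentraxin that binds microbes and complement, had one of the smallest adjusted p-values of the comparison, at 260, 515, 269, 179 and 235 against 22.1, 20.8, 25.3 and 18.8 (log2 fold change 3.60, SE 0.43, limma adjusted p = 0.000242). Serpina3n, a serine protease inhibitor, rose by 1.75 (SE 0.31). Saa2 was listed at 0 in all 4 WT control libraries and ran from 6.97 to 29.9 in Sema3b-/- arthritis, at least 27.2-fold higher against the same floor; with Saa2 at its bound the median of the list stayed at 1.75. A2m, a broad protease inhibitor of plasma, was the member that fell, from 123 to 242 down to 8.34 to 73.2 (named after its values were seen). A single fall among 11 genes is near the share of all genes, 4.37%. Of 18 interferon-stimulated genes 5 rose, with a median of 1.25, and 2 rose without Sema3b-/- arthritis replicate 2 or without replicate 5, and 3 with scaling to total reads. Isg15, an interferon-induced ubiquitin-like protein, was at 146, 292, 110, 165 and 326 against 18.8, 25.3, 34.7 and 26.4 (log2 fold change 2.84, SE 0.45). Its 2 highest values were those of replicates 2 and 5, as for Bst2, a tether of budding viruses (2.12, SE 0.36), and Oasl2, whose call (1.44, SE 0.37) ended without WT control replicate 1 or 4 or Sema3b-/- arthritis replicate 2 or 5 (limma adjusted p = 0.0571, 0.069, 0.0542 and 0.05).

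**Figure D2:**
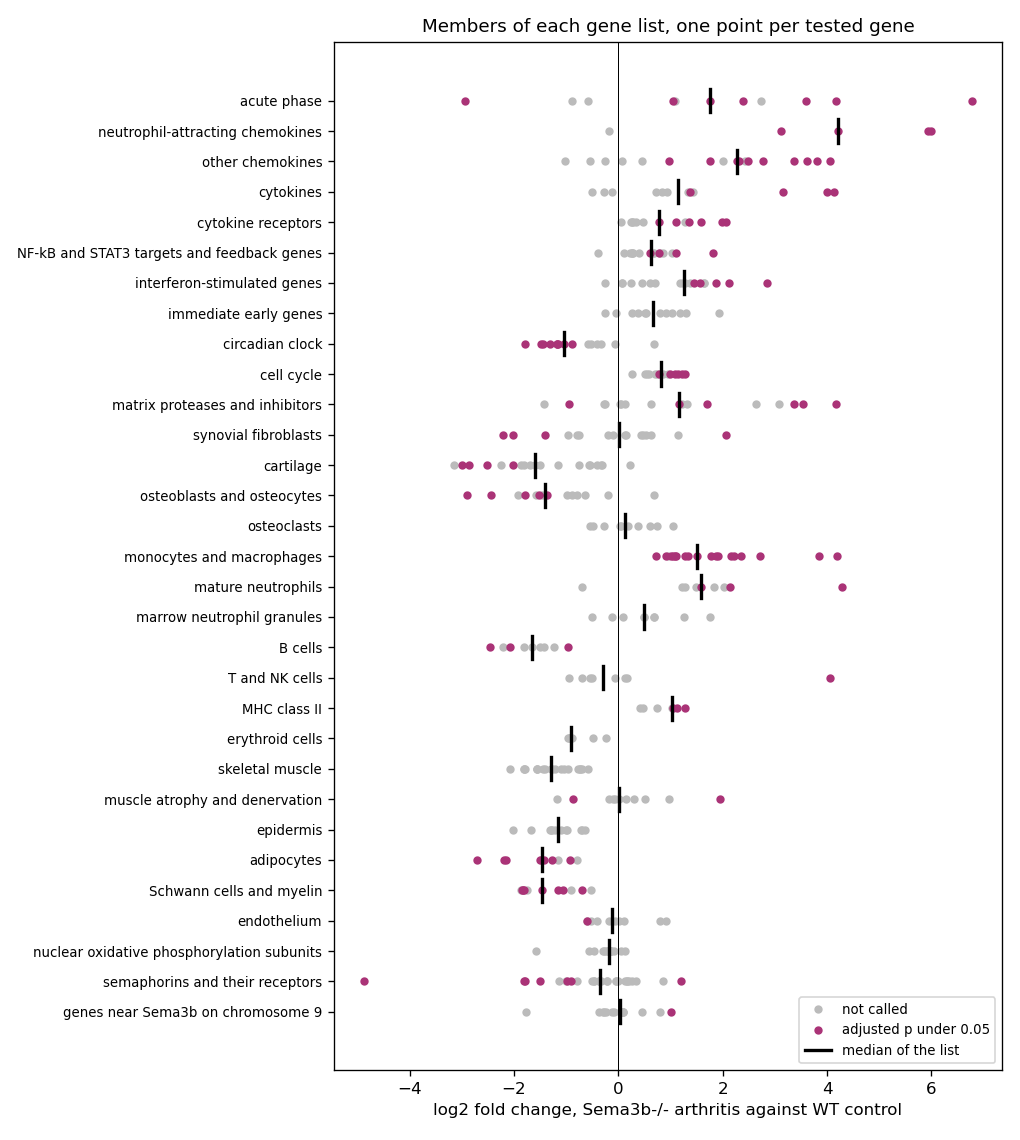
Log2 fold change of Sema3b-/- arthritis against WT control for every tested member of 31 gene lists; each point is 1 gene, purple where the limma adjusted p was under 0.05, and the black bar is the median of the list. The monocyte and macrophage list has 18 of 19 members called higher with a median of 1.51, while no skeletal muscle or epidermis member is called, with medians of -1.29 and -1.15.

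Genes of monocytes and macrophages rose almost throughout. Of 19 tested, 18 rose, with a median of 1.51, beside 6.42% of all genes, and 13 and 14 rose without Sema3b-/- arthritis replicates 2 and 5. Cx3cr1, a chemokine receptor of patrolling monocytes and resident macrophages, did not pass (0.95, limma adjusted p = 0.0942; named after its value was seen). Ccr2, the receptor by which inflammatory monocytes follow Ccl2, was at 740, 765, 565, 705 and 668 against 160, 205, 186 and 180 (log2 fold change 1.91, SE 0.21, limma adjusted p = 0.000226), so that the groups were separated by much more than the spread within either. Clec4d and Clec4e, C-type lectin receptors of myeloid cells for glycolipids and damaged cells, rose by 4.19 (SE 0.65) and 3.84 (SE 0.83). Mrc1, the mannose receptor of tissue macrophages, rose by 1.01 (SE 0.18). The list took 0.112% to 0.144% of the normalized counts in WT control and 0.206% to 0.363% in Sema3b-/- arthritis. In WT arthritis replicates 1 and 2 it took 0.126% and 0.111%, near the level of WT control.

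Genes of mature neutrophils leaned upward with a wide spread. Of 9 tested, 3 rose, with a median of 1.59. Cxcr2, the receptor for Cxcl1, Cxcl2 and Cxcl5, was at 97.2, 228, 103, 101 and 135 against 25.4, 26.2, 39.4 and 22.2 (log2 fold change 2.14, SE 0.41). Trem1 was at 88.1, 136, 58.3, 63.6 and 145 against 12.2, 2.71, 4.69 and 0.853 (log2 fold change 4.28, SE 0.74). Both genes were without overlap, whereas S100a8, a calcium-binding protein abundant in neutrophils, stood at 2.02 on the log2 scale (SE 0.69, limma adjusted p = 0.0721). Csf3r, the receptor of G-CSF, rose by 1.59 (SE 0.49), a call that ended without any 1 of 10 libraries, each WT control, Sema3b-/- control replicate 2, WT arthritis replicate 5 and Sema3b-/- arthritis replicates 1, 2, 4 and 5 (limma adjusted p = 0.0528 to 0.116). Granule genes of marrow precursors gave no call with limma or edgeR in 9 tested (1 at an unadjusted p under 0.05, 1 called by DESeq2), and within Sema3b-/- arthritis they varied widely, Camp from 365 in replicate 5 to 6140 in replicate 1. The mature neutrophil list took 0.618% of the normalized counts in that replicate 1 and 0.128% in replicate 3, against 0.0674% to 0.11% in WT control.

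Some antigen presentation genes rose and some B cell genes fell. Of 7 MHC class II genes 3 rose, with a median of 1.03. H2-DMb1, a chaperone of peptide loading, rose by 1.12 (SE 0.25), and the class II chain gene H2-Aa was at 12400, 11900, 8810, 19100 and 11000 against 4780, 6540, 4580 and 4560 (log2 fold change 1.28, SE 0.32), although the latter call ended without WT control replicate 3 or 4 (limma adjusted p = 0.054 and 0.0558). H2-Ab1 rose by 1.04 (SE 0.32), a call that ended without any 1 of 10 libraries, each WT control, Sema3b-/- control replicates 2 and 4 and Sema3b-/- arthritis replicates 1, 2, 4 and 5 (0.0519 to 0.111). Of 9 B cell genes 3 fell, and all 9 had negative values, with a median of -1.66. Cd79a fell by 2.07 (SE 0.57), a call that ended without WT control replicate 1, 2 or 3 or Sema3b-/- arthritis replicate 2, 3 or 5 (limma adjusted p = 0.0612 to 0.083), and Ebf1, a transcription factor of the B lineage that other cells also express, by 0.96 (SE 0.23). Gzmb, the cytotoxic granule protease granzyme B, was the 1 of 8 T and NK cell genes to rise, at 18.1, 69.2, 22.1, 63.6 and 56.3 against 0, 4.51, 5.63 and 0, while Cd2 and Cd4 stood at -0.70 and -0.54 without passing. A single rise among 8 genes stands beside 6.42% of all genes.

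**Figure D3:**
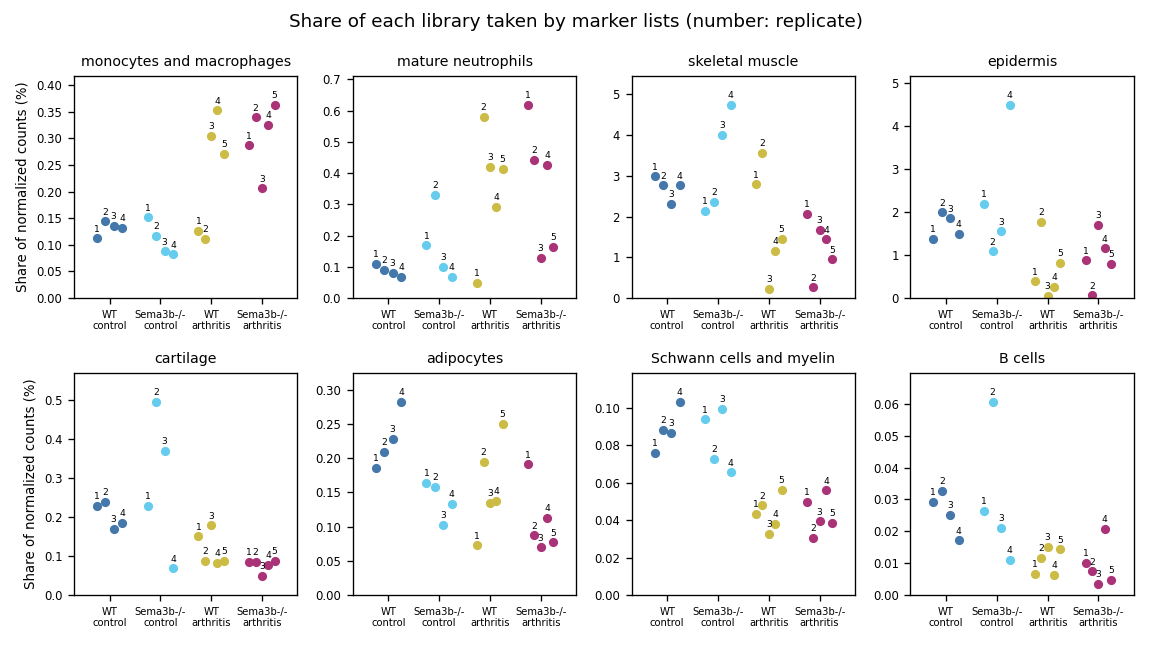
Share of the normalized counts of each library, in percent, taken by 8 lists of cell type markers; each point is 1 library, numbered by replicate, in the 4 groups. Sema3b-/- arthritis replicate 2 held 0.263% of skeletal muscle and 0.0643% of epidermis RNA, against 2.31% to 2.99% and 1.37% to 1.99% in WT control.

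Proteases of the joint leaned upward, while few synovial fibroblast genes were called in either direction. Of 17 matrix proteases and inhibitors 5 rose and 1 fell, beside 6.42% and 4.37% of all genes, with a median of 1.17. The 1 fall is near the share of all genes. Mmp3, stromelysin-1, which degrades cartilage matrix, was at 1700, 3320, 2090, 1110 and 3800 against 132, 100, 98.5 and 157 (log2 fold change 4.18, SE 0.72). Timp1, an inhibitor of the same enzyme class, rose as well, from 492 to 708 in WT control to 3760 to 11300 (3.37, SE 0.61), and so did the protease Mmp19 (3.53, SE 0.73). Tnfaip6, which transfers heavy chains onto hyaluronan in inflamed tissue, was at 647, 785, 498, 870 and 575 against 44.2, 33.4, 55.4 and 48.6 (log2 fold change 3.86, SE 0.77). Timp3, an inhibitor bound to the matrix, was the member that fell (-0.94, SE 0.26; named after its value was seen), a call that ended without WT control replicate 2, 3 or 4 or Sema3b-/- arthritis replicate 2 or 5 (limma adjusted p = 0.0548 to 0.0839). Of 16 synovial fibroblast genes 1 rose, near the share of all genes, and 3 fell. The median was 0.02 and turned to -0.01 with scaling to total reads. With Sema3b-/- arthritis replicates 3 to 5 alone none of the 16 passed (6 at an unadjusted p under 0.05). Pdpn, podoplanin, a membrane glycoprotein of lining fibroblasts, rose by 2.06 (SE 0.42), whereas Htra4, a serine protease, was at 263, 113, 321, 297 and 276 against 889, 1220, 1190 and 1180 (log2 fold change -2.21, SE 0.54) and Tspan15, a tetraspanin, fell by 1.40 (SE 0.33).

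Cartilage and bone genes were lower. Of 19 cartilage genes 4 fell and 18 had negative values, with a median of -1.60. Chad (chr11:94565047-94569127), chondroadherin, a matrix protein that binds chondrocytes, was at 993, 349, 399, 1360 and 465 against 4650, 5560, 3930 and 5550 (log2 fold change -2.99, SE 0.54, limma adjusted p = 0.00422). Clec3a, a lectin of cartilage, was at 58.3, 27.5, 36.2, 76.7 and 60.4 against 345, 539, 260 and 356 (log2 fold change -2.87, SE 0.58). Cilp2, an intermediate layer protein, fell by 2.02 (SE 0.34). The main structural genes of cartilage did not pass, with Col2a1, type II collagen, at -2.24 (SE 0.90) and Acan, aggrecan, at -0.32 (SE 0.71). Of 14 osteoblast and osteocyte genes 5 fell, with a median of -1.41, and 3 and 2 fell without Sema3b-/- arthritis replicates 2 and 5. Alpl, the alkaline phosphatase needed for mineral deposition, was at 223, 276, 145, 163 and 178 against 767, 672, 675 and 552 (log2 fold change -1.78, SE 0.39). Bglap, osteocalcin, fell by 2.91 (SE 0.66) and its near copy Bglap2 by 2.45 (SE 0.69); reads of the 2 genes may be shared, and the Bglap2 call ended without any 1 WT control library or Sema3b-/- arthritis replicate 3 or 5 (limma adjusted p = 0.0622 to 0.0822). No osteoclast gene passed with limma in 10 tested (2 at an unadjusted p under 0.05, 1 called by edgeR and 2 by DESeq2), with Atp6v0d2, a subunit of the proton pump, at 1.04 (SE 0.35).

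Most of the fat and nerve genes fell. Of 10 adipocyte genes 7 fell, all 10 were negative, and the median was -1.45. For genotype the adipocyte median was -0.67 within controls and -0.93 within arthritis. For arthritis it was -0.65 within WT and -0.83 within Sema3b-/-. No adipocyte gene passed in any of the genotype tests. Lep, leptin, was at 18.1, 7.58, 2.01, 3.49 and 4.17 against 34.3, 38.8, 40.3 and 54.6 (log2 fold change -2.71, SE 0.53). Retn, the adipose hormone resistin, was at 202, 47.4, 42.2, 75.8 and 41.7 against 253, 320, 309 and 359 (log2 fold change -2.20, SE 0.49), with replicate 1 of the arthritis group closest to the control range. Cyp2e1, a cytochrome P450 expressed in fat as well as liver, fell by 2.25 (SE 0.59), a call that ended without WT control replicate 1 or 4 or Sema3b-/- arthritis replicate 2 (limma adjusted p = 0.0597, 0.0746 and 0.0577). Thrsp, a regulator of fatty acid synthesis, fell by 2.40 (SE 0.54), and Lpl, lipoprotein lipase, by 0.92 (SE 0.22), a call that ended without WT control replicate 4 (0.0516). Of 11 Schwann cell and myelin genes 7 fell and all 11 were negative, with a median of -1.47. Ncmap, a protein of non-compact myelin, was at 41.5, 12.3, 31.2, 92.4 and 24.3 against 108, 117, 125 and 133 (log2 fold change -1.85, SE 0.44). Gldn, gliomedin, which assembles nodes of Ranvier, fell by 1.47 (SE 0.36), Pmp22, a compact myelin protein, by 0.69 (SE 0.16). Npy, a neuropeptide gene on neither of these lists, was at 37.6, 26.5, 53.3, 61.9 and 44.5 against 267, 197, 276 and 338 (log2 fold change -2.59, SE 0.52). Which cells of the forepaw its RNA came from was not tested. Without Sema3b-/- arthritis replicate 2, 5 adipocyte and 4 Schwann cell genes fell, and with Sema3b-/- arthritis replicates 3 to 5 alone no Schwann cell gene passed (8 at an unadjusted p under 0.05, median -1.20). With replicates 1 and 2 alone no adipocyte gene passed (5 at an unadjusted p under 0.05, median -0.97).

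Muscle and skin genes were lower without passing the test. All 20 skeletal muscle genes had negative values (median -1.29), and limma and edgeR called none (4 at an unadjusted p under 0.05, 2 called by DESeq2). Acta1, skeletal actin, was at 10000, 1250, 7130, 6240 and 3630 against 13200, 19600, 12000 and 20400 (log2 fold change -1.79, SE 0.69, limma adjusted p = 0.11). Among single muscle genes, Myl2, a myosin light chain of slow fibres, was at 122, 19, 550, 119 and 59.7 against 1160, 1000, 640 and 1280 (log2 fold change -3.31, SE 0.86), a fall whose call ended without WT control replicate 1, 2 or 4 or Sema3b-/- arthritis replicate 2 or 5 (limma adjusted p = 0.0558 to 0.0691) and with edgeR (0.0635). Myl6b, another myosin light chain, fell by 2.38 (SE 0.52), a call that ended with female libraries alone (0.0728). Slc2a4, the insulin-responsive glucose transporter of muscle and fat, fell by 2.21 (SE 0.60) and Tmem52, a membrane protein, by 2.36 (SE 0.68). Those 2 calls ended without any 1 WT control library or Sema3b-/- arthritis replicate 5, and that of Tmem52 also without replicate 2 (0.051 to 0.0891). All 12 epidermis genes were negative as well (median -1.15), and neither limma, edgeR nor DESeq2 called any, with none at an unadjusted p under 0.05. Replicate 2 of Sema3b-/- arthritis was the lowest library for Acta1 and for Krt10, a keratin of the outer skin, which was at 9880, 552, 19700, 12100 and 7880 against 18600, 31900, 26900 and 27500. Without it the medians were -0.78 for muscle and -0.25 for epidermis. The medians of other lists without it were -1.42 for adipocytes, -1.24 for Schwann cells, -1.46 for cartilage, -1.42 for osteoblasts and osteocytes and -1.61 for B cells.

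Most of the circadian clock genes tested fell. Of 15, 9 fell and none rose, with a median of -1.04 beside -0.04 for all genes and -0.89 without Sema3b-/- arthritis replicate 2. Nr1d1, a repressor within the clock, was at 355, 184, 507, 507 and 347 against 921, 1000, 989 and 1080 (log2 fold change -1.48, SE 0.28). Per3, a period protein, was at 68.7, 36, 57.3, 33.1 and 40.3 against 108, 124, 127 and 146 (log2 fold change -1.45, SE 0.28). Tef, a transcription factor driven by the clock, fell by 1.04 (SE 0.22). The sources used here do not state the hour at which tissue was taken, and its part in the result was not tested. Of 14 cell cycle genes 6 rose, with all 14 positive and a median of 0.82. With Sema3b-/- arthritis replicates 3 to 5 alone 1 rose (6 at an unadjusted p under 0.05, median 0.61). With replicates 1 and 2 alone 6 rose (median 1.21). The list median was 0.63 for genotype within controls and 0.53 within arthritis, and 0.44 for arthritis within WT and 0.25 within Sema3b-/-. No member passed in any of the genotype tests. Pcna, the sliding clamp of DNA replication, was at 1430, 1570, 1210, 1370 and 1230 against 795, 892, 766 and 710 (log2 fold change 0.78, SE 0.15). Cdk1 (1.27, SE 0.27) and Birc5 (1.22, SE 0.27), which act in mitosis, rose too. Their calls ended with Sema3b-/- arthritis replicates 3 to 5 alone. No immediate early gene passed with limma in 12 tested (5 at an unadjusted p under 0.05, 3 called by edgeR and 4 by DESeq2). Fos, a subunit of AP-1, was at 130 and 190 in replicates 1 and 2 and at 1010, 1140 and 404 in replicates 3 to 5, against 90.4 to 129 in WT control. The 2 sets of arthritis titles therefore differed for Fos, and 3 of the 12 genes rose when replicates 3 to 5 were compared alone with WT control.

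Other tissue lists showed few calls. Single calls in lists this short are near the shares of all genes, 6.42% higher and 4.37% lower. Of 11 genes of muscle atrophy and denervation Ankrd1, a stretch-induced ankyrin repeat protein, rose by 1.94 (SE 0.41) and Cdkn1a, the cell cycle inhibitor p21, fell by 0.87 (SE 0.19). Of 10 endothelial genes Tek, the angiopoietin receptor, fell by 0.61 (SE 0.16), a call that ended without WT control replicate 2, 3 or 4 or Sema3b-/- arthritis replicate 2 (limma adjusted p = 0.0511 to 0.0872) and with scaling to total reads. None of 16 nuclear oxidative phosphorylation subunit genes passed with limma or edgeR (2 at an unadjusted p under 0.05, 1 called by DESeq2), with a median of -0.18. None of 6 erythroid genes passed with limma, edgeR or DESeq2 (0 at an unadjusted p under 0.05).

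Some semaphorins other than the deleted gene fell as well. Of 29 semaphorins and receptors tested, 6 fell, Sema3b included, and 1 rose, with a median of -0.35. Of all genes 4.37% fell and 6.42% rose. The list median was -0.07 for genotype within controls and 0.13 within arthritis, and -0.48 for arthritis within WT and -0.36 within Sema3b-/-. Sema6c, a transmembrane semaphorin, was at 11.7, 19, 15.1, 29.6 and 14.6 against 70.7, 55.9, 54.4 and 70.8 (log2 fold change -1.81, SE 0.34). Sema6c ran from 11.9 to 45.4 in WT arthritis and from 61.5 to 116 in Sema3b-/- control. Sema3c (-0.91, SE 0.25), Sema3d (-1.51, SE 0.34) and Sema3e (-1.78, SE 0.43), secreted members of the same class as Sema3b, fell as well and are named after their values were seen; the Sema3c call ended without WT control replicate 1 or 4 or Sema3b-/- arthritis replicate 2 (limma adjusted p = 0.0646, 0.0867 and 0.0687). Among receptors Plxna2, a plexin that pairs with neuropilins, was at 67.4, 57.8, 76.4, 47.1 and 69.5 against 134, 121, 122 and 125 (log2 fold change -0.99, SE 0.20). Plxnc1, a plexin of leukocytes, was the gene that rose (1.20, SE 0.32), a call that ended without WT control replicate 1, 2 or 4 or Sema3b-/- arthritis replicate 2 (0.056 to 0.0768). The neuropilins Nrp1 and Nrp2 stood at 0.17 (SE 0.13) and -0.05 (SE 0.28).

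The combined comparison cannot itself tell genotype from arthritis, so each gene was also tested for genotype with the treatment held. Between the control groups 2 genes passed (0.0145% of those tested), between the arthritis groups 3 (0.0217%) and in the mean of both 9 (0.0652%), where 811, 1239 and 1285 genes had an unadjusted p under 0.05. The sexes were unequal in these tests, with 1 female and 4 males in WT arthritis, 4 females and 1 male in Sema3b-/- arthritis, 2 of each in Sema3b-/- control and 4 females in WT control. Genotype within arthritis and arthritis within WT are therefore largely confounded with sex, and with a term for sex 0, 4 and 10 genes passed in the 3 genotype tests. Together these are 10 genes, and 8 of them are among the 1491 of the combined comparison: Sema3b, Lrrn4cl, Tmem100, Abhd14a, Abhd14b, Snapc3, Rbp4 and Cdkn1b. The other 2, Gas5 and Rangap1, separated by genotype and did not pass in the combined comparison. All 9 Sema3b-/- libraries lay outside the range of all 9 WT libraries for 6 genes (0.0434%), of which Sema3b, Lrrn4cl, Abhd14a and Rbp4 also passed in the combined comparison and Rangap1 and Tcf12 did not. Depending on which library was left out, 0 to 3, 2 to 6 and 5 to 10 genes passed in the 3 genotype tests. With DESeq2 on recovered reads the counts were 5, 94 and 77, and with female libraries alone, where WT arthritis is left with 1 library, they were 0, 203 and 197.

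Lrrn4cl and Tmem100 were lowest in Sema3b-/- arthritis among all 4 groups. Lrrn4cl (chr19:8850768-8853909), a leucine-rich repeat membrane protein, was at 84.2, 72, 98.5, 101 and 117 in Sema3b-/- arthritis and at 231, 206, 203 and 231 in WT control (combined log2 fold change -1.21, SE 0.16, limma adjusted p = 0.000456). It was at 170, 174, 180 and 168 in Sema3b-/- control and from 200 to 333 in WT arthritis, so all 9 Sema3b-/- values lay below all 9 WT values. The genotype difference was -1.40 within arthritis (limma adjusted p = 0.000385) and -0.33 within controls (0.854). Tmem100 (chr11:90030348-90036508), a membrane protein of endothelium and nerve that responds to BMP signals, was at 298, 255, 280, 374 and 343 against 585, 598, 537 and 768 in WT control (combined log2 fold change -1.0, SE 0.18). Its Sema3b-/- control values, 680, 596, 700 and 618, lay inside the WT range, and the genotype difference was -1.16 within arthritis (limma adjusted p = 0.0106) and 0.07 within controls (0.999). The call within arthritis ended without Sema3b-/- arthritis replicate 2 (0.0517), with the 2 arthritis groups fitted alone and with scaling to total reads, while that of Lrrn4cl ended with the 2 groups alone and passed whichever library was left out (at most 0.00264). Whether the genotype difference itself changed between treatments was not tested here.

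Gas5 (chr1:161034422-161038539), a noncoding RNA that hosts small nucleolar RNAs, separated by genotype but not in the combined comparison. It was at 566, 569, 488 and 542 in Sema3b-/- control, at 934, 1050, 995 and 953 in WT control and at 662, 671, 971, 942 and 774 in Sema3b-/- arthritis. The genotype difference was -0.86 within controls (limma adjusted p = 0.0385) and -0.72 in the mean of both treatments (0.00203). The call within controls ended without any 1 of 13 of the 18 libraries, all 8 control libraries included (up to 0.261), while the call in the mean passed in every such fit. The combined difference was -0.31 (SE 0.13, 0.133), with arthritis at 0.27 within WT and 0.55 within Sema3b-/-. Rangap1, the activator of the nuclear transport GTPase Ran, was the 1 gene higher in Sema3b-/- by the mean genotype test (0.51, limma adjusted p = 0.0421), and its combined difference was 0.32 (SE 0.13, 0.119). Rangap1 was at 236, 278, 290, 247 and 228 in Sema3b-/- arthritis, at 287, 265, 236 and 337 in Sema3b-/- control, and from 143 to 213 in the 9 WT libraries, with no overlap between genotypes.

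A pair of genes on the same chromosome as Sema3b passed in the mean genotype test. Abhd14a (chr9:106440051-106447678) and Abhd14b (chr9:106447459-106452923), which overlap at their ends on opposite strands and encode hydrolase-fold proteins, lie 1150 and 1145 kb before Sema3b. Abhd14a was at 127, 152, 154, 129 and 152 in Sema3b-/- arthritis against 195, 227, 229 and 208 in WT control (combined log2 fold change -0.59, SE 0.14). Its genotype difference was -0.60 within controls (limma adjusted p = 0.491) and -0.67 within arthritis (0.082). Its call in the mean genotype test ended with female libraries alone, the replicate block and scaling to total reads. That call and the combined call both ended with Sema3b-/- arthritis replicates 3 to 5 alone and with replicates 1 and 2 alone. Abhd14b was at 79, 29.4, 107, 54 and 49.3 against 322, 353, 310 and 405 (combined log2 fold change -2.55, SE 0.35, limma adjusted p = 0.000743), with genotype differences of -1.33 within controls (0.793) and -1.91 within arthritis (0.0614). Abhd14b also fell with arthritis within Sema3b-/- (-1.22, limma adjusted p = 0.0315), and its Sema3b-/- values overlapped those of WT, whereas the arthritis difference of Abhd14a there was 0.01 (0.979). Because the 2 genes overlap, reads may be shared where the counting did not use strand. Of 78 tested genes within 2 Mb of Sema3b, these 2 passed in the mean genotype test, 5 rose and 7 fell in the combined comparison, beside 6.42% and 4.37% of all genes, and the median genotype difference was 0.05 against -0.01 for all genes. Of 15 tested genes on the list of close neighbours 1 rose in the combined comparison, near the share of all genes. It was Hyal1, a hyaluronidase, at 27.2, 33.2, 28.1, 34 and 39.6 against 12.2, 12.6, 18.8 and 19.6 (log2 fold change 1.01, SE 0.30), and was at 1.16 and 0.82 for genotype within controls and within arthritis without passing; its combined call ended without any 1 WT control library or Sema3b-/- arthritis replicate 2, 4 or 5 (limma adjusted p = 0.054 to 0.105).

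**Figure D4:**
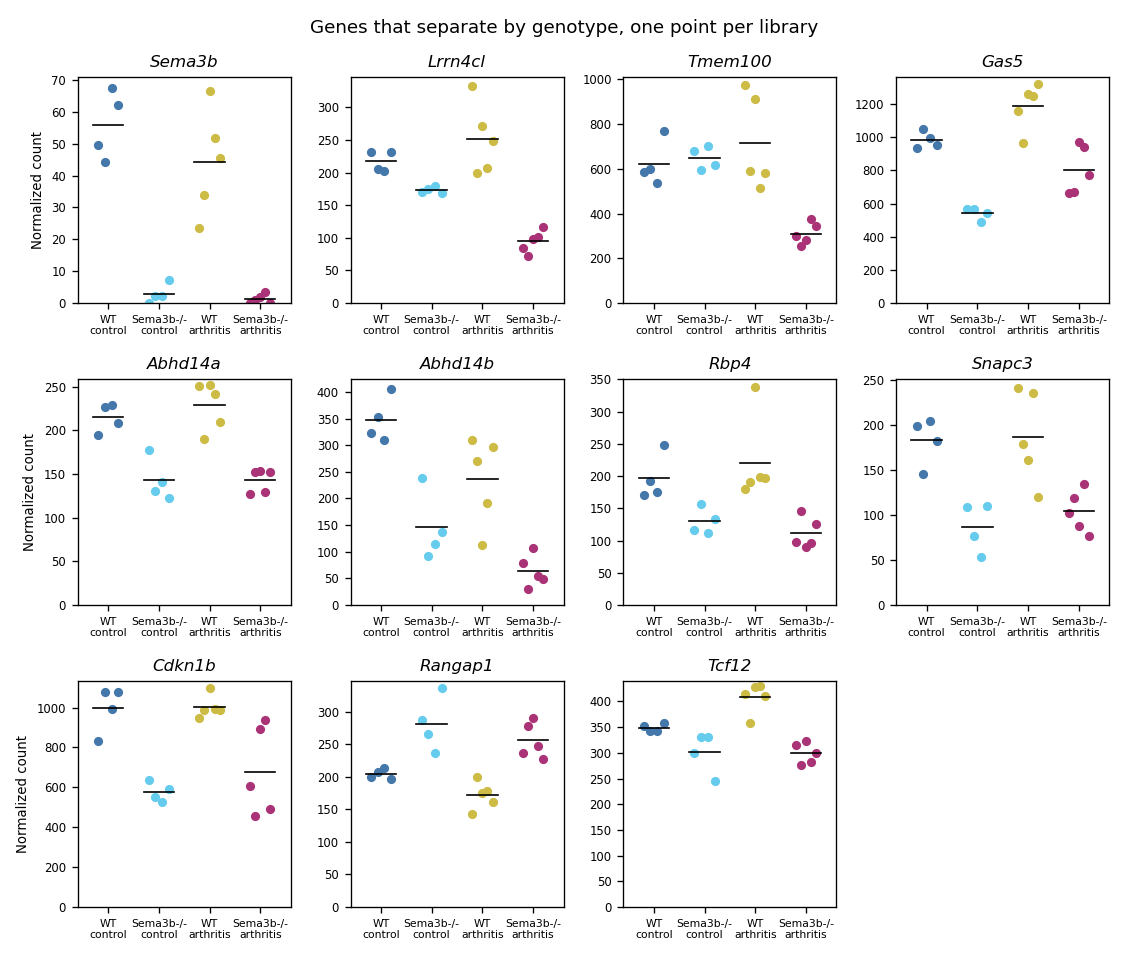
Normalized counts of the 11 genes that separate by genotype, from 0, in the 4 groups; each point is 1 library and each line the group mean. Lrrn4cl and Tmem100 are lowest in Sema3b-/- arthritis, at 72 to 117 and 255 to 374, while Gas5 is lowest in Sema3b-/- control, at 488 to 569.

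Rbp4, Snapc3, Cdkn1b and Tcf12 are the remaining genes that separate by genotype. Rbp4, the plasma carrier of retinol, was at 98.5, 146, 90.5, 95.8 and 126 in Sema3b-/- arthritis against 171, 192, 176 and 248 in WT control (combined log2 fold change -0.83, SE 0.20), a call that ended without WT control replicate 4 (limma adjusted p = 0.0564). Snapc3, a subunit of the complex that starts transcription of small nuclear RNAs, was at -0.82 (SE 0.24), and Cdkn1b, the cell cycle inhibitor p27, at -0.61 (SE 0.18). Their combined calls ended without 7 and 6 of the libraries, WT control replicates 3 and 4 and Sema3b-/- arthritis replicates 1, 2 and 5 for both, WT control replicate 1 and Sema3b-/- arthritis replicate 3 for Snapc3 and WT control replicate 2 for Cdkn1b (limma adjusted p = 0.0545 to 0.105). In the mean genotype test Rangap1, Rbp4 and Cdkn1b lost the call without any 1 of 16 libraries and Snapc3 of 14 (up to 0.155). Tcf12, a basic helix-loop-helix transcription factor, had Sema3b-/- values of 245 to 331 and WT values of 342 to 430, without passing in any of the tests (-0.22 combined, SE 0.11).

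For the 12 highest and 12 lowest genes by the rule given with the plot of single libraries, the combined difference was split into its steps by both routes. Each combined log2 fold change is the sum of arthritis within WT and genotype within arthritis, and also of genotype within control and arthritis within Sema3b-/-. The routes share libraries and are not independent of each other. For Saa3 the steps were 5.19 (arthritis within WT) and 1.58 (genotype within arthritis) by the first route, and -0.74 and 7.51 by the second. Across the 12 highest genes, genotype within arthritis ranged from 0.77 to 1.92 (SE 0.40 to 1.20) and genotype within control from -1.37 to 0.56 (SE 0.45 to 1.34). These genes were chosen for high values in Sema3b-/- arthritis against WT control, which favours positive values in every step. No gene passed with limma, edgeR or DESeq2 in either (2 and 0 at an unadjusted p under 0.05, limma adjusted p = 0.228 to 0.842 and 0.902 to 0.999). Arthritis within Sema3b-/- was called for 12 of these 12, at 3.11 to 7.51, and arthritis within WT for 9, at 2.03 to 5.19.

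For the 12 lowest genes the 2 routes gave different splits, and no test compared the steps. These genes were chosen for low values in Sema3b-/- arthritis against WT control, which favours negative values in every step. Their signs and calls below are therefore no separate evidence for either factor. Genotype within arthritis ranged from -2.12 to -0.66 (SE 0.33 to 0.81), with 0 of 12 called by limma or edgeR, 5 by DESeq2 and 8 at an unadjusted p under 0.05. Arthritis within WT ranged from -2.11 to -0.28 for the same genes, with 0 called by limma, 1 each by edgeR and DESeq2, and 7 at an unadjusted p under 0.05. By the other route arthritis within Sema3b-/- ranged from -2.59 to -0.90, with 8 called by limma, and genotype within control from -1.33 to 0.13, with 0 called by limma, edgeR or DESeq2 and 2 at an unadjusted p under 0.05. Thrsp had -0.28 for arthritis within WT and -2.12 for genotype within arthritis, at 62.2, 18, 50.3, 117 and 57.7 in Sema3b-/- arthritis, 176, 300, 250 and 459 in WT control and 65.1 to 443 in WT arthritis. Myl2 had -2.11 and -1.20 for the same steps. The levels of WT arthritis replicates 1 and 2, given above, enter every genotype step within arthritis and every arthritis step within WT.

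**Figure D5:**
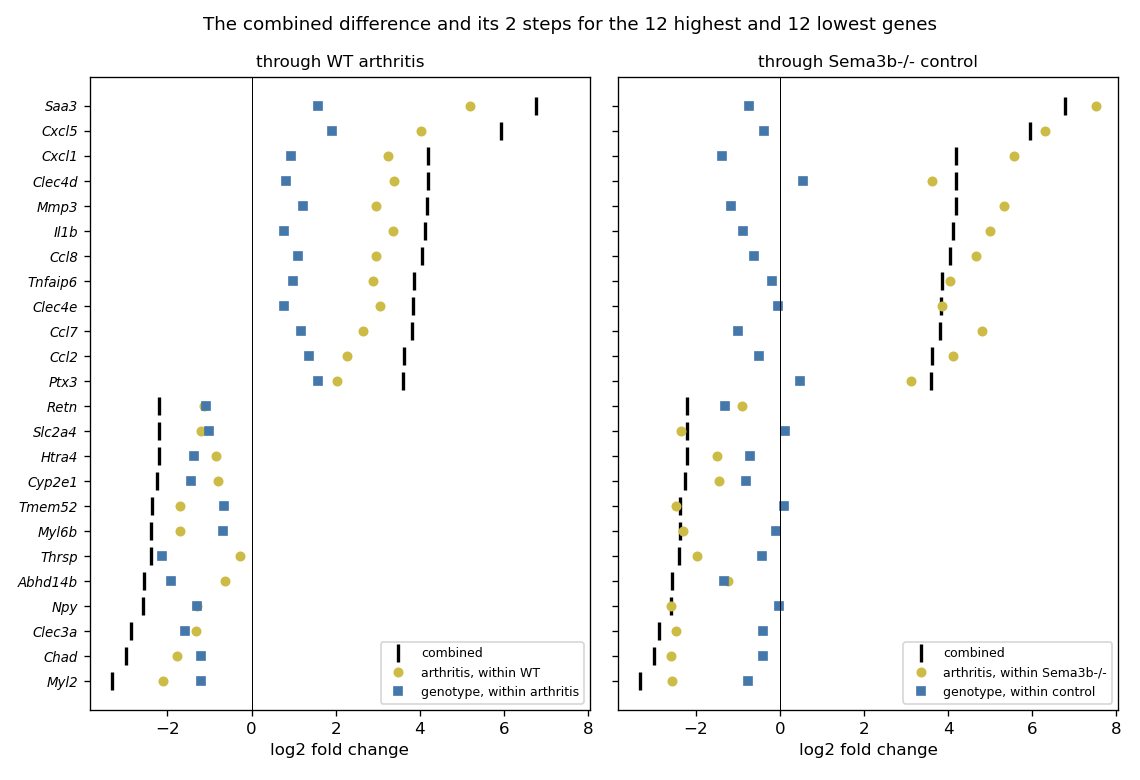
Combined log2 fold change (black bar) and its 2 steps for those 12 highest and 12 lowest genes, through WT arthritis (left) and through Sema3b-/- control (right); yellow circles are the arthritis step and blue squares the genotype step. On the right the genotype step of the 12 highest genes lies between -1.37 and 0.56, and on the left between 0.77 and 1.92.

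The authors' deposited table gives its own test of the same contrast. It called 1012 genes at an adjusted p under 0.05, 636 higher and 376 lower, and 987 of them were also called by limma here. For genotype it called 0 genes between the control groups, where limma called 2 and 811 had an unadjusted p under 0.05, and 2 between the arthritis groups, Sema3b and Lrrn4cl. In the authors' deposited table Saa3 had a log2 fold change of 6.80 (adjusted p = 0.00248), Chad of -2.79 (0.00855) and Lrrn4cl of -1.19 (0.00411), while Myl2, at -2.55, did not pass there (0.0711).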

How the data were processed

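The authors' deposited table holds CEL-seq normalized counts per gene, a signal from which whole reads were recovered (all values whole within 0.02 of a read), with the log2 fold changes and adjusted p-values of the authors' deposited comparisons. Per the submitters' processing notes, BWA, DESeq2 1.32 and mm10 were used; the sources used here do not name the counting tool, the annotation or any use of molecular identifiers. After removal of 7 spike-in rows, 18578 genes remained, and 26 gene names turned into dates were restored. Genes at 10 or more in at least 4 libraries were tested on log2(value + 1) with limma 3.58.1 in R 4.3.3 (trend, robust; 4 group means, all 18 libraries), tested beforehand on simulated data. Recovered reads were fitted with edgeR 4.0.16 and DESeq2 1.42.0 as alternatives. Named genes were the 12 highest and 12 lowest called genes without overlap at or above the median level, the 3 members of lowest p in each list, and the genes separating by genotype. Members and lists were chosen with earlier results of these data known. Groups came from titles and treatment labels. Replicates were compared pair by pair, and none differed by less than sampling noise. Intervals and floors cover counting error only, since PCR copies may be included. Coordinates are from GENCODE vM21 and promoters from RefSeq (GRCm38.p6), which had an entry for 93 of 120 named genes. A gene that the naming rule selects is not reported here.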

Additional observations from a re-analysis of the deposited data

Results flagged for a closer look

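Some libraries stood apart from the rest of their own group, by a gap to the nearest library that is large for the range of the group (Dixon's criterion, which chance meets in about 1 of 20 groups). The genes listed are among the 120 named, so many groups were looked at and part of these gaps can be chance. In Sema3b-/- arthritis replicate 2 the highest values of the group were found for Ptx3 (515, next 269), Il4ra (847, next 552), Cdk1 (1120, next 658) and Itgb3 (290, next 173), and the lowest for Htra4 (113, next 263). In replicate 4 the highest were Ccl7 (3950, next 2350), Cd2 (110, next 41.0) and H2-DMb1 (655, next 408). Myl2 was highest in replicate 3 (550, next 122) and Retn in replicate 1 (202, next 75.8). The Y-linked genes Uty (65.3, next 0.871), Kdm5d (117, next 1.3), Eif2s3y (181, next 1.74) and Ddx3y (806, next 5.03) were highest in replicate 5, the male of the group. In WT control, Htra4 was lowest in replicate 1 (889, next 1180), Tmem52 lowest in replicate 3 (132, next 206), H2-Aa highest in replicate 2 (6540, next 4780) and Alas2 highest in replicate 1 (439, next 183). Kdm5d at 1.71 in WT control replicate 4 (next 0) and Eif2s3y at 0 in WT control replicate 1 (next 0.853) are differences of a few reads.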

How the results depend on the processing

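The 84 named calls of the combined comparison kept their direction under every alternative, and 66 of them passed whichever library was left out. The count of 1491 became 2421 with the 9 libraries fitted alone, 3013 with array weights, 692 with an absolute log2 fold change of at least 1, and 435 and 674 with Sema3b-/- arthritis replicates 3 to 5 or 1 and 2 only. It was 1572 with edgeR and 2165 with DESeq2, and it ranged from 766 to 1717 with 1 library left out. Between the control groups the 2 calls became 0 with a pseudocount of 0.5, a filter at 50, the 2 groups alone, a term for sex or female libraries only, 1 with no filter, scaling to total reads or an absolute log2 fold change of at least 1, and 5 with DESeq2 (0 to 3 with 1 library left out). Between the arthritis groups the 3 calls became 1 with the 2 groups alone, 203 with female libraries only, 94 with DESeq2, 38 with array weights and 20 with replicates 1 and 2 only (2 to 6 with 1 library left out). The 9 calls of the mean genotype test became 5 with no filter, 197 with female libraries only, 4 with scaling, 77 with DESeq2, 44 with array weights, 5 with replicates 3 to 5 only and 2 with the fold limit (5 to 10 with 1 library left out). For arthritis within WT (582 calls) the counts were 271 with the 2 groups alone, 133 with a term for sex, 58 with female libraries only, 1279 with DESeq2, 2525 with array weights, 331 with replicates 1 and 2 only and 189 with the fold limit (149 to 1112 with 1 library left out), and scaling turned its split from 364 higher and 218 lower to 51 and 749. For arthritis within Sema3b-/- (1710 calls) they were 998 with the 2 groups alone, 1025 with female libraries only, 610 and 663 with replicates 3 to 5 or 1 and 2 only, and 798 with the fold limit (975 to 1913 with 1 library left out). Replicate numbers are shared between groups. Between Sema3b-/- arthritis and WT control, deviations of same-numbered libraries correlated at 0.155, -0.037, 0.012 and -0.044. The other groups and differently numbered pairs were not compared, so whether a number marks a shared batch was not tested. With the replicate block the counts were 932 combined, 1 between controls, 196 within WT and 1020 within Sema3b-/-. Array weights give libraries unequal weight, the fold limit keeps only calls with an absolute log2 fold change of at least 1, and smaller groups use fewer libraries. Why the counts moved was not tested for any setting. Low depth limits genes near 0, such as Sema3b in the knockout.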
